A study of Mus musculus with 14 samples.

Results

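The comparison described here set 2 male mouse fetuses that had received a let-7f-5p mimic as zygotes against 4 male fetuses that had received the vehicle. They are 6 of the 14 fetal RNA libraries of the study, and sex and treatment were read from the sample titles. All fetuses were wild type on the F1 C57BL/6Jx129S1/SvlmJ background and were collected at gestational day 12.5. Zygotes were allotted at random to microinjection of nuclease-free water (vehicle) or of the mimic, a miRCURY LNA microRNA mimic given at what the labels call a stress-relevant concentration. Every zygote, vehicle included, was therefore injected, was cultured in KSOM medium under low oxygen, and was carried by a CD1 recipient dam. No label ties a fetus to a dam or litter, so fetuses of a group may share one, and the p-values cover no variation beyond that among the fetuses sampled. The other 8 libraries were 5 vehicle and 3 let-7f females, which entered the model to estimate the spread and to test whether the sexes differed.

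let-7 is a family of microRNAs that share a seed, the stretch near the 5′ end that pairs with sites in the 3′ UTR of target mRNAs and lowers their stability or translation. Its members accumulate as cells differentiate. The RNA-binding proteins LIN28A and LIN28B block the maturation of let-7 precursors, and let-7 in turn targets the mRNAs of both proteins, as well as growth regulators such as HMGA2 and the IGF2 mRNA-binding proteins. The mimic is placed beside 3 relatives to show what they share and where they differ. The seed, bases 2 to 8, is in capitals, and the sequences are those of RefSeq for mouse (GRCm38.p6).
let-7f-5p: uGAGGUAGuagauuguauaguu
let-7a-5p: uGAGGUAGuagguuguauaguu
let-7g-5p: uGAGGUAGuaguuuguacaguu
miR-98-5p: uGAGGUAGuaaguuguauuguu
The sequence that the labels give for the mimic was identical to the mature product of both mouse let-7f genes, which lie at chr13:48537889-48537910 (minus strand) and chrX:151912353-151912374 (plus strand).

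The site that such a seed pairs with is the reverse complement CTACCTC, and a match extended by an A opposite the first base of the microRNA (CTACCTCA) is the 8-base site. The 3′ UTRs of the GENCODE M21 annotation (GRCm38) were searched on the transcribed strand, and 1 such site is printed for each of the targets that the results return to, with the match in capitals.
Lin28b, chr10:45381022-45381051 (minus strand): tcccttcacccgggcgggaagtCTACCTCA
Trim71, chr9:114512472-114512501 (minus strand): aaagtacaacattgcctaagtcCTACCTCA
Hmga2, chr10:120364224-120364253 (minus strand): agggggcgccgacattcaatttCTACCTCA
Igf2bp1, chr11:95961778-95961807 (minus strand): aggcagtgctgtgcgaagtaaaCTACCTCA
Lin28a, chr4:134005189-134005218 (minus strand): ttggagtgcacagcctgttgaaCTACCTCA
Trim71 held 4 of these 8-base sites, Igf2bp1 held 3, Lin28a held 2, and Lin28b and Hmga2 held 1 each. Each match describes the letters of the UTR, and pairing was not measured.

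The labelled sex held in every library. Eif2s3y, a Y-linked translation factor subunit, had normalised counts of 3103 to 3894 in vehicle males and of 4318 and 2979 in let-7f males, against 1.07 to 5.25 in vehicle females and 1.70 to 10.6 in let-7f females. Male libraries held between 27709934 reads (let-7f male 1) and 38568009 reads (vehicle male 4).

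The libraries of the let-7f males were unlike each other. Ribosomal protein genes took 16.3% of the reads of let-7f male 1 and 4.89% of those of let-7f male 2, against 4.20%, 9.76%, 4.26% and 4.41% in vehicle males 1 to 4. Lars2, a mitochondrial leucyl-tRNA synthetase, took 2.21% of the reads of let-7f male 1, 0.0976% of those of let-7f male 2, and 0.0416%, 0.228%, 0.567% and 0.0759% of those of the vehicle males. Let-7f male 1 was thus the highest of the 6 males in both measures, and vehicle male 2 was the next highest in the ribosomal share. Transcript length moved with the difference in these same libraries. Genes were put into 4 equal classes by annotated length. The class of shortest genes (66 to 2078 bases) lay at a median of 0.66 on the log2 scale above the vehicle mean in let-7f male 1, and that of the longest (4734 to 106824 bases) lay at -0.41. Vehicle male 2 set against the other vehicle males ran from 0.67 to -0.61 over the same classes, whereas let-7f male 2 ran from -0.03 to 0.05. Results that rest on let-7f male 1 or on vehicle male 2 are therefore given with each let-7f male apart, and without vehicle male 2 where that library moves them. The part of transcript length and of the ribosomal share in any single difference was not tested.

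**Figure D1:**
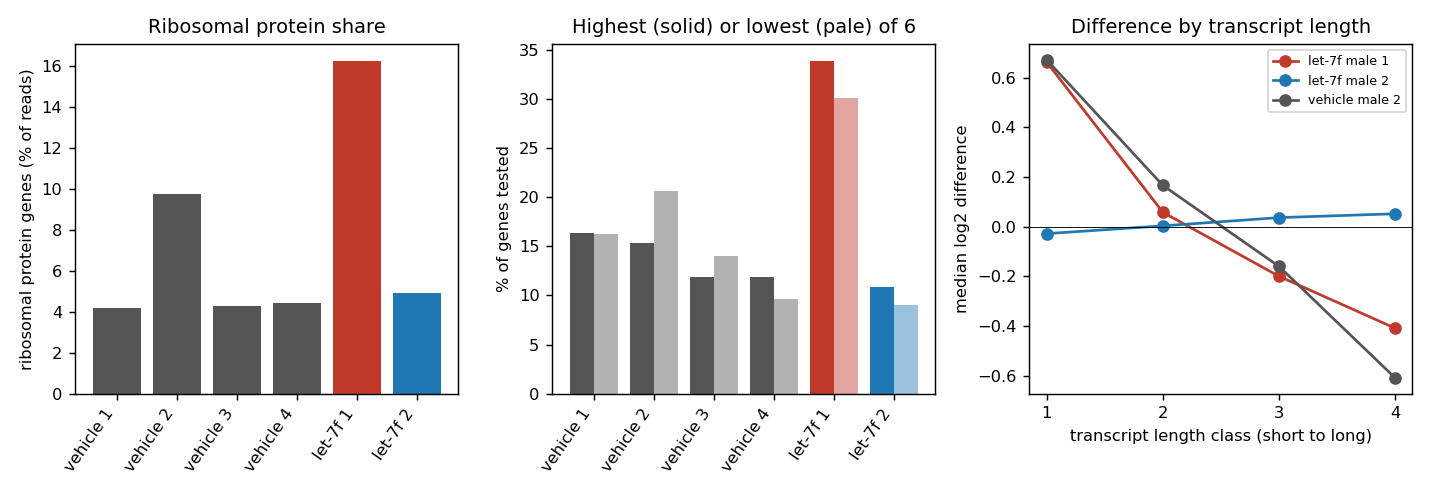
Left, reads in ribosomal protein genes as a percentage of all reads in each male library. Middle, the percentage of 17400 genes at which a library was the highest (solid) or the lowest (pale) of the 6 males. Right, the median log2 difference from the vehicle male mean (for vehicle male 2, from the other vehicle males) in 4 classes of transcript length, short to long. Let-7f male 1 had the highest ribosomal share (16.3%) and was the highest of 6 at 33.9% of genes, and its length trend lay close to that of vehicle male 2.

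Let-7f male 1 was the highest of the 6 males at 5894 of 17400 genes and the lowest at 5232. Let-7f male 2 was the highest at 1882 and the lowest at 1570, fewer than each of the 4 vehicle males in both directions. Put against the 4 vehicle males, let-7f male 1 lay above all of them at 34.9% of genes and below all of them at 31.4%, and let-7f male 2 at 13.9% and 13.6%. Both let-7f males lay above all 4 vehicle males at 720 genes (4.14%) and below all of them at 1026 genes (5.9%). Vehicle male 2 widened the vehicle range at many genes, and without it these counts were 3526 (20.3%) and 3322 (19.1%). Without let-7f male 1 they were 2427 and 2362, and without let-7f male 2 they were 6069 and 5469.

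The model called no gene. With limma on log2(normalised count + 1) over all 17400 genes, 0 genes (0.0%) passed an adjusted p of 0.05 (Benjamini and Hochberg) in let-7f against vehicle males, the smallest adjusted p was 0.138, and 1874 genes (10.8%) had an unadjusted p under 0.05. edgeR on the recovered reads also had 0 calls, and 2388 genes were under 0.05 before adjustment. DESeq2 on the same reads called 58 genes, 48 higher (0.276%) and 10 lower (0.0575%). The genes below are therefore described by the values of the 6 fetuses and by how far the groups were apart, and a fold change is a difference on the log2(normalised count + 1) scale with its standard error from limma. Each gene described in that way had a limma adjusted p of at least 0.447 in let-7f against vehicle males.

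Among genes with an established symbol and a mean of at least 50, the widest upward gap between the groups belonged to Grip2, a scaffold protein that binds glutamate receptors at synapses. Its normalised counts were 1186, 1224, 1440.4 and 1775 in vehicle males 1 to 4 and 4626 and 4619 in let-7f males 1 and 2. Both let-7f males thus stood above every vehicle male and at nearly the same level, with a difference of 1.74 ± 0.29 (SE) with an adjusted p of 0.447 in limma and 0.000141 in DESeq2. They also exceeded all 5 vehicle females, which ranged over 1572 to 3261. Lmx1a, a homeobox factor of the roof plate and midbrain floor, had 344, 257, 285 and 363 in the vehicle males and 688 and 677 in the let-7f males. That was a difference of 1.14 ± 0.29, again with the let-7f males close together, but vehicle females spanned 344 to 833 and reached past them.

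Several other genes on the higher side belong to the developing neural tube. Msx3, a homeobox gene of the dorsal neural tube, had 244, 215, 252 and 279 in vehicle males and 848 and 416 in let-7f males. Foxn4, a forkhead factor of spinal and retinal progenitors, had 71.4, 59.7, 77.1 and 78.1 against 122 and 119. Let-7f male 1 was the higher of the let-7f males in Msx3, whereas the let-7f males were level in Foxn4. The remaining genes of this group were of mixed kinds. Muc1, a membrane mucin of epithelia, had 120.3, 147, 74.4 and 129 in vehicle males and 272 and 225 in let-7f males, and Msh5, a MutS homologue needed in meiosis, had 115, 156, 209 and 148 and 351 and 305. In Muc1 and Msh5, as in Grip2, both let-7f males exceeded all 9 vehicle fetuses, which held at 184 of 17400 genes (1.06%). Pdzk1ip1, a small membrane protein that binds PDZ domains, ran over 203 to 375 in vehicle males with let-7f values of 954 and 539. Anxa9, an annexin, ran over 70.0 to 106 with let-7f values of 153 and 276, so that here let-7f male 2 stood further out. Otoa, which encodes otoancorin of the inner ear, and Ankrd29 differed by 1.01 ± 0.48 and 0.87 ± 0.31. The embryonic globin genes Hbb-bh1 and Hba-x complete the 12 widest upward gaps and are described with the blood genes.

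On the lower side the widest gap was at Neurod6, a transcription factor of newly formed cortical neurons. Its normalised counts were 374, 535, 512 and 391 in vehicle males and 88.1 and 152 in let-7f males, a difference of -1.94 ± 0.73. Vehicle females covered 76.7 to 469.5, so the let-7f males lay inside the range of vehicle fetuses of the other sex. Sncb, the neuronal protein beta-synuclein, had 48.9, 129, 70.0 and 66.6 against 22.9 and 24.6. Plxnb3, a receptor for semaphorins, had 69.5, 79.0, 68.2 and 71.9 against 31.7 and 33.4. In Plxnb3 the 4 vehicle males agreed closely and the let-7f males agreed closely, and the let-7f males were below all 9 vehicle fetuses, as they were in Sncb.

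Matrix genes of bone and connective tissue made up much of the rest. Aspn, which encodes the small proteoglycan asporin, had 196, 289.5, 243 and 169.6 in vehicle males and 38.8 and 74.8 in let-7f males. Ibsp, bone sialoprotein, had 88.1, 219.7, 105 and 57.7 against 26.4 and 13.8. Tnn, tenascin N, had 133, 175, 181 and 150.0 against 26.4 and 67.9. Let-7f male 1 was the lower of the let-7f males in Aspn and Tnn, and let-7f male 2 the lower in Ibsp. Csgalnact1, the enzyme that starts chondroitin sulphate chains, ran over 194 to 405 in vehicle males with let-7f values of 97.0 and 90.5. The difference was -1.57 ± 0.46, and both values were below all 9 vehicle fetuses, which held at 222 of 17400 genes (1.28%).

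The other genes with wide downward gaps were regulators, receptors and a lens protein. Klf14, an imprinted Krüppel-like factor, had 115, 129, 136 and 90.5 in vehicle males and 35.3 and 45.3 in let-7f males, a difference of -1.52 ± 0.31 with a DESeq2 adjusted p of 0.0139. Lhcgr, the receptor for luteinising hormone, had 86.1, 77.9, 59.4 and 80.8 against 24.7 and 29.5, a difference of -1.45 ± 0.30 with a DESeq2 adjusted p of 0.03. Both genes lay below all vehicle fetuses of either sex in both let-7f males. Slc2a2, the glucose transporter GLUT2, had 114, 112, 74.4 and 115 against 26.4 and 37.4, and its vehicle females spanned 3.50 to 101. Susd5, a sushi-domain protein, and Cryga, a gamma-crystallin of the lens, differed by -1.28 ± 0.50 and -1.85 ± 1.35. Cryga had an adjusted p of 0.52, and its vehicle range of 59.5 to 315 was set at the top by vehicle male 2.

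**Figure D2:**
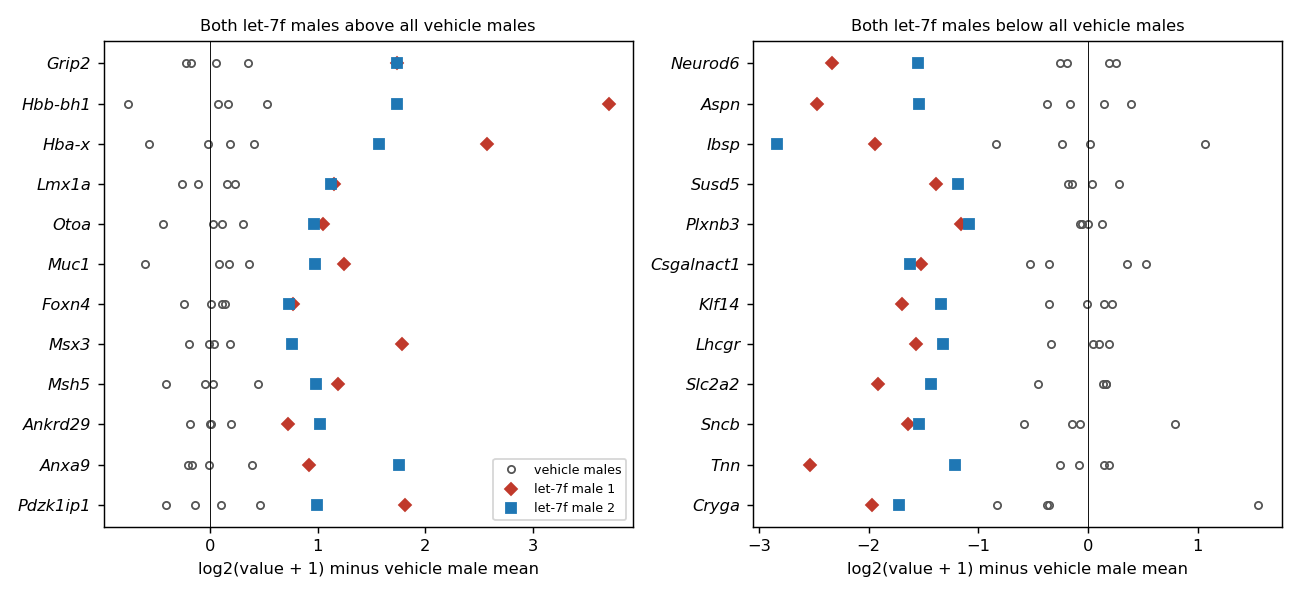
Log2(normalised count + 1) minus the vehicle male mean for the 12 genes with the widest gap above (left) and below (right) the vehicle males. Open circles are the 4 vehicle males, red diamonds let-7f male 1 and blue squares let-7f male 2. The let-7f males coincide in Grip2 and lie furthest from each other in Hbb-bh1 on the left and Tnn on the right.

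Haemoglobin genes switch during mid-gestation from embryonic forms, made by primitive red cells of the yolk sac, to adult forms made by definitive red cells of the fetal liver. All 3 embryonic globin genes lay above every vehicle male in both let-7f males. Hbb-bh1 (embryonic beta-like) had 4226, 5797, 2354 and 4501 in the vehicle males and 52472 and 13391 in the let-7f males, a difference of 2.72 ± 0.64. Hba-x (embryonic alpha-like, zeta) had 26456, 30916, 15664 and 22835 against 138162 and 68821, a difference of 2.07 ± 0.44. Hbb-y (embryonic epsilon) had 88441, 135341, 64954 and 83543 against 313122 and 141399.9, where let-7f male 2 exceeded vehicle male 2 by little. Let-7f male 1 was the higher in each, and DESeq2 gave adjusted p-values of 0.00172, 0.00172 and 0.132 for the 3 genes. The median of the 3 was 2.57 in let-7f male 1 and 1.57 in let-7f male 2, and was 1.37 and 1.59 once the trend with transcript length was removed from each library.

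Adult globin genes did not follow the embryonic ones. Hba-a1 had 155680.3, 506085, 167326 and 185352 in vehicle males and 389694 and 154271 in let-7f males. Hbb-bs had 88081, 314066, 84338 and 96430.3 against 110067 and 59911, and Hbb-bt had 50354, 182367, 47843 and 61399 against 59769 and 30477. Let-7f male 2 lay below all vehicle males at all 4 adult genes, whereas let-7f male 1 lay within the vehicle range, whose top was vehicle male 2 in each case. The adult copies Hba-a1 and Hba-a2, and Hbb-bs and Hbb-bt, are near-identical, so how reads were divided between them is uncertain. The adult median was 0.33 in let-7f male 1 but -1.06 with the length trend removed, and it was -0.89 in let-7f male 2, or -0.44 without vehicle male 2.

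Expressed as a share of all globin value within a fetus, embryonic genes made up 44.6% and 45.7% in let-7f males 1 and 2 against 27.2%, 13.6%, 20.6% and 22.7% in vehicle males 1 to 4. The shares of the let-7f males were nearly equal although their libraries were not, and both lay above all 4 vehicle males. The same order held within each chain. Hba-x was 23.2% and 28.2% of alpha-globin value against at most 12.8% in vehicle males, and embryonic beta-like genes were 68.3% and 63.1% of beta-globin value against at most 40.1%. Vehicle females, however, spread from 16.4% to 60.5% in the embryonic share of all globin and so enclosed the let-7f males, and let-7f females ran from 24.0% to 40.8%.

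**Figure D3:**
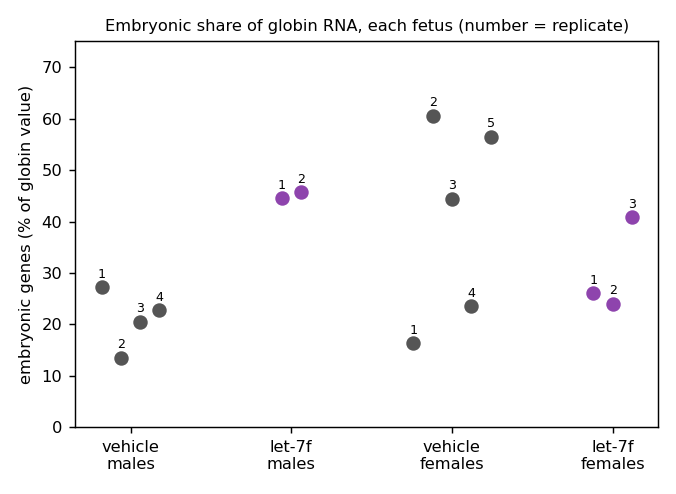
Embryonic globin genes (Hbb-bh1, Hba-x, Hbb-y) as a percentage of the summed normalised counts of the 7 globin genes, 1 point per fetus, numbered by replicate. Both let-7f males (44.6% and 45.7%) lie above all 4 vehicle males (13.6% to 27.2%) and within the range of the 5 vehicle females (16.4% to 60.5%).

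Other red cell lists differed from each other. Of 12 heme synthesis genes, 0 lay above and 3 (25.0%, against 5.9% of all genes) below all vehicle males in both, among them Tfrc, the transferrin receptor (6254, 5293, 5408 and 5062 against 4376 and 3655), and Cpox, an enzyme of the pathway (2956, 4120.1, 2639.9 and 3931 against 1953 and 2497). The heme synthesis medians were 0.30 in let-7f male 1 and -0.17 in let-7f male 2. Let-7f male 1 lay above all vehicle males at 5 of the 12 and below at 4, where 34.9% and 31.4% of all genes did. Let-7f male 2 lay above at 0 and below at 4, where 13.9% and 13.6% of all genes did. Of 16 red cell membrane genes, 5 (31.2%) lay below and 1 above in both let-7f males. Of 15 erythroid regulators, 0 lay below and 0 above. Leaving out vehicle male 2, the shares below were 33.3% of heme genes, 37.5% of membrane genes and 6.67% of regulators, against 19.1% of all genes. The lower membrane genes included Ank1, the ankyrin of the red cell skeleton (3291, 4199, 3487 and 3888 against 2317 and 2902), and Aqp1, a water channel (579, 886, 626 and 626 against 393 and 472). The difference in Aqp1 was -0.64 ± 0.35, with vehicle male 2 at the top of the vehicle range. In whole fetuses, fewer cells of a type and less RNA per cell cannot be told apart, here and in every group below.

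Liver genes separated the let-7f males from each other. Let-7f male 2 lay below all 4 vehicle males at 22 of 28 hepatocyte genes and above at 0, where 13.6% of all genes lay below, with a median of -0.67. Let-7f male 1 lay below at 5 and above at 6, where 31.4% of all genes lay below and 34.9% above. Its median was 0.37, or -0.01 with the length trend removed. Alb, albumin, had 16913, 61427, 20206 and 20859 in vehicle males and 42770.2 and 14637 in let-7f males, and Afp, alpha-fetoprotein, had 45773, 89517, 27074 and 29978 and 123595 and 22876. Let-7f male 2 was therefore the lowest of the 6 males in both, and let-7f male 1 was the highest in Afp. Both let-7f males lay below at 4 liver genes (14.3%, or 17.9% without vehicle male 2, where 19.1% of all genes did): Serpina6, which carries glucocorticoids in plasma (2909, 6006, 3154 and 3139 against 2163 and 2432), Serpina1d, a protease inhibitor (148, 232, 125 and 116 against 79.3 and 87.6), Fga, fibrinogen alpha (1175, 1446, 841 and 816 against 807 and 644), and Cps1 of the urea cycle (76.3, 54.7, 43.4 and 44.4 against 33.5 and 40.3). Without vehicle male 2 the liver median of let-7f male 2 was -0.40. The spread between vehicle fetuses was wide, and vehicle females ran from 43.8 to 50229 in Alb.

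Yolk sac endoderm genes had a median of -0.82 in let-7f male 2 and -0.20 in let-7f male 1, and 3 of 16 (18.8%, against 5.9% of all genes) lay below all vehicle males in both, including Slc2a2 above and Slc39a5, a zinc transporter (170.2, 295, 132 and 98.5 against 75.8 and 80.7). Without vehicle male 2, 4 of the 16 (25.0%, against 19.1% of all genes) lay below in both. The mean level of this list over its members, as a log2 deviation from the vehicle male mean, was -0.24 and -0.77 in the let-7f males and ran from -0.54 to 0.99 in vehicle males. Among the males, Prl3b1 (placental lactogen) was highest in vehicle male 1, at 189 against 7.09, 4.43 and 4.44 in the other vehicle males and 0 and 4.92 in the let-7f males. Of 10 trophoblast genes 0 lay outside all vehicle males in both let-7f males in either direction, and the trophoblast mean ran from -0.69 to 1.65 in vehicle males against -0.40 and -0.58.

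Connective tissue genes lay lower in both let-7f males. Of 36 matrix genes, both let-7f males lay below all vehicle males at 19 (52.8%) and above at 0, against 5.9% and 4.14% of all genes, and at 25 (69.4%, against 19.1%) without vehicle male 2. Let-7f male 1 lay below at 25 and let-7f male 2 at 23, where 31.4% and 13.6% of all genes did. The medians were -0.66 and -0.28, or -0.46 and -0.30 with the length trend removed. Col1a1, the main chain of type I collagen, had 33815, 29686, 38799 and 41167 in vehicle males and 18927 and 20976 in let-7f males. Lox, which cross-links collagen, had 2178, 1791, 2155 and 1862 against 744 and 1111. Both genes showed close vehicle values and a clear gap, with differences of -0.84 ± 0.27 and -1.13 ± 0.35. Thbs2, a matricellular thrombospondin, had 1415, 1409, 1652 and 1404 against 652 and 880.4, and Ogn, the proteoglycan osteoglycin, had 1009.7, 934, 1001 and 853 against 358 and 615. The mean level of the 36 genes was -0.62 and -0.31 in the let-7f males, and lay between -0.02 and 0.03 in the 4 vehicle males and between -0.41 and -0.02 in the vehicle females.

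Cartilage genes lay lower as well. Both let-7f males were below all vehicle males at 9 of 25 (36.0%, against 5.9% of all genes) and above at 1, with medians of -0.61 and -0.47. The mean level of the 25 genes was -0.65 and -0.66 in the let-7f males and lay between -0.31 and 0.41 in vehicle males. Vehicle females ran from -0.91 to 0.21 and so enclosed the let-7f males. Acan, aggrecan of cartilage matrix, had 1094, 1946, 1289 and 1095 in vehicle males and 465 and 595 in let-7f males, a difference of -1.32 ± 0.48. Matn1, matrilin 1, had 233, 932, 317 and 293 against 171 and 112, with vehicle male 2 far above the rest, and Chad, chondroadherin, had 90.0, 91.1, 100.1 and 93.2 against 47.6 and 60.0. Matn3, matrilin 3, was the lowest in let-7f male 1, at 7.05 against 47.9 to 94.1 in vehicle males and 30.5 in let-7f male 2. The medians were -0.60 in let-7f male 1 and -0.47 in let-7f male 2 without vehicle male 2, and 11 of 25 (44.0%) lay below in both, against 19.1% of all genes. Bone genes were mixed, and 4 of 13 (30.8%, against 19.1% of all genes) lay below in both without vehicle male 2. Of 13 genes, 3 (23.1%) lay below in both let-7f males and 0 above, namely Ibsp, Spp1, osteopontin (125, 166, 130.2 and 133 against 67.0 and 108), and by a small margin Sp7, the osteoblast factor osterix (132, 227, 170.1 and 150.0 against 127 and 129.9).

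Skeletal muscle divided the let-7f males in the way that liver did. Let-7f male 2 lay below all vehicle males at 19 of 29 genes, where 13.6% of all genes lay below, with a median of -0.48 that was -0.27 without vehicle male 2. Let-7f male 1 lay above at 9 and below at 6, where 34.9% of all genes lay above and 31.4% below. Its median was 0.27, or -0.21 with the length trend removed. Both let-7f males lay below at 4 genes (13.8%, against 5.9% of all genes), or at 6 (20.7%, against 19.1%) when vehicle male 2 was left out. Casq2, a calcium-storing calsequestrin, had 1022, 1039.6, 1137 and 835 against 614 and 625, Mybpc1, a myosin-binding protein, had 1233, 1789.8, 1370.4 and 1217 against 1084 and 1114, Mymk, which fuses myoblasts, had 239.7, 437, 240.1 and 232 against 227 and 212, and Myf5, a determination factor, had 66.5, 65.8, 82.4 and 82.6 against 14.1 and 63.0. Casq2 is also made in the heart, and the heart list stood at 1.01 in let-7f male 1 and -0.03 in let-7f male 2.

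The lens gave the lowest median of all lists in let-7f male 2. At 14 of 16 lens genes that fetus lay below all vehicle males, where 13.6% of all genes did, with a median of -1.10. Let-7f male 1 lay below at 5 and above at 4, where 31.4% of all genes lay below and 34.9% above. Its median was -0.04, which became -0.86 with the length trend removed. Both let-7f males were below at 5 genes (31.2%, against 5.9% of all genes), Cryga and 3 other crystallins (the refractive proteins of lens fibres) among them. Crygd had 17.6, 75.9, 14.2 and 15.1 in vehicle males and 1.76 and 3.93 in let-7f males, Crygb had 13.7, 62.8, 16.8 and 12.4 against 7.05 and 3.93, and Cryba2 had 47.9, 135, 60.2 and 48.8 against 26.4 and 29.5. Vehicle male 2 had the highest value at each of these crystallins, and without it the lens median of let-7f male 2 was -0.72. Both let-7f males then lay below at 5 of 16 (31.2%, against 19.1% of all genes) and above at 1. Gamma-crystallin genes are close copies of each other, so reads may have been shared among them, and Crygd rested on 1 read in let-7f male 1.

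Neural progenitor genes leaned higher in let-7f male 2, and neuronal genes had a negative median in let-7f male 1 but a mean level within the vehicle male range. Of 24 progenitor genes, 4 (16.7%, against 4.14% of all genes) lay above all vehicle males in both let-7f males and 1 below. Neurog1, which starts sensory neurogenesis, had 84.1, 153, 99.2 and 104 against 358 and 185. Nes, the progenitor filament nestin, had 23223, 26519, 26887 and 24368 against 38086 and 30311, and Sox3, a progenitor factor, had 171, 265, 204 and 233 against 444 and 297. In all 3 let-7f male 1 was the highest and let-7f male 2 the next. Let-7f male 2 alone lay above all vehicle males at 12 of the 24, with a median of 0.35, where 13.9% of all genes lay above. In let-7f male 1 the median was -0.08, with 10 of the 24 above the vehicle mean. The mean level of the list was 0.16 and 0.31 in the let-7f males and ran from 0.03 to 0.53 in vehicle females.

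Among 25 neuronal genes, medians were -0.53 and -0.04, and only Scg2, a secretory granule protein, lay outside in both (329.7, 421, 371 and 353 against 185 and 282). In let-7f male 2, 12 of the 25 were above the vehicle mean. Let-7f male 1 lay below all vehicle males at 9 and above at 6, where 31.4% and 34.9% of all genes did. The mean level of the list was -0.28 and -0.01 in the let-7f males, within the range of -0.31 to 0.14 in vehicle males. Leaving out vehicle male 2 gave 9 of 24 progenitor genes above in both (37.5%, against 20.3% of all genes) and 10 of 25 neuronal genes below (40.0%, against 19.1%). Of 20 genes of peripheral neurons and neural crest, both let-7f males lay below at 5 (25.0%) and above at 1. Of all genes, 5.9% lay below and 4.14% above. Without vehicle male 2 the counts were 7 below (35.0%, against 19.1% of all genes) and 3 above (against 20.3%). The medians were -0.11 and -0.10. Let-7f male 1 lay above all vehicle males at 7 and below at 8. Let-7f male 2 lay above at 2 and below at 7, where 13.9% and 13.6% of all genes did. The mean level was -0.10 and -0.13, within the range of -0.17 to 0.08 in vehicle males. Avil, advillin of sensory neurons, had 202, 287, 316 and 229 against 185 and 178. Pou4f1, a sensory neuron factor, had 747, 719, 943 and 739 against 669.9 and 664, a small gap in spite of a place below all vehicle fetuses.

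Proliferation genes leaned higher in both let-7f males. Of 38 genes of DNA replication and mitosis, 8 (21.1%, against 4.14% of all genes) lay above all vehicle males in both and 0 below, and the medians were 0.25 and 0.21. Removal of the length trend left 0.33 and 0.21, and without vehicle male 2 the count was 22 of 38 (57.9%), against 20.3% of all genes. The sizes were small. Cenpf, a kinetochore protein, had 4673, 4872, 5829.8 and 4977 against 6350.3 and 7295, Bub1b, of the spindle checkpoint, had 5084, 5027, 5033 and 5348 against 5849.6 and 6792, and Aurka, a mitotic kinase, had 2020.4, 2514, 2327 and 2135 against 2657 and 2897. Rrm2, which supplies deoxynucleotides, had 4774, 5829, 4933 and 5418 against 6215 and 6074. Let-7f male 2 was the higher in the 3 mitotic genes, with 0.42 ± 0.17 the largest difference among them. The mean level of the list lay between 0.06 and 0.25 in vehicle females. That range held let-7f male 2 (0.21), and let-7f male 1 (0.26) lay just above it.

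Hox genes, which set position along the body axis, lay above in 7 of 39 (17.9%, against 4.14% of all genes) and below in 1. With vehicle male 2 left out, 8 of 39 (20.5%) lay above, near the share of all genes (20.3%). The medians were 0.35 and 0.22, but the value of let-7f male 1 was -0.05 with the length trend removed. Hoxa2 of the hindbrain and branchial arches had 409, 388, 407 and 400.4 against 576 and 538, with each group tight. Hoxc9 of the trunk had 323, 351, 338 and 318 against 1185 and 452, Hoxc11 had 119, 102, 148 and 153 against 220.4 and 168, and Hoxb1 of the hindbrain had 31.3, 12.1, 25.7 and 25.7 against 81.1 and 34.4. Let-7f male 1 led in each of these 4. Of 22 limb patterning genes 2 (9.09%) lay above in both and 0 below, or 5 (22.7%) and 2 (9.09%) without vehicle male 2, near the 20.3% of all genes above. Tbx15, a T-box factor of limb and dermal mesenchyme, had 1819.8, 1807, 1454 and 1355 against 5895 and 2330.4, and Shh, the hedgehog ligand of the posterior limb bud, had 175, 139.7, 177 and 180.2 against 182 and 211.

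The injected microRNA addresses the let-7 targets, and their levels were compared first as a list. Of 45 listed targets, 3 lay above all vehicle males in both let-7f males (6.67%, against 4.14% of all genes) and 0 lay below (against 5.9%). The let-7f males disagreed on the rest. In let-7f male 2, 40 of 45 targets were above the vehicle mean, with a median of 0.18. In that fetus 12 exceeded all vehicle males, where 13.9% of all genes did. In let-7f male 1, 11 of 45 were above the mean, with a median of -0.31. That fetus lay below all vehicle males at 15 targets and above at 8, where 31.4% of all genes lay below and 34.9% above. The lower vehicle reference came from vehicle male 2, and without it the medians were 0.01 and -0.44. Both let-7f males then lay above at 3 targets (6.67%, against 20.3% of all genes) and below at 8 (17.8%, against 19.1%). The mean level of the list was -0.27 and 0.19 in the let-7f males and ran from -0.49 to 0.18 in vehicle males, so that let-7f male 1 lay within the vehicle range and let-7f male 2 just above its top.

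The targets whose sites are printed above were as follows. Lin28b had 722, 476, 702 and 662 in vehicle males and 744 and 776 in let-7f males, a difference of 0.27 ± 0.24 with a 95% interval of -0.24 to 0.77. Trim71, a stem cell ubiquitin ligase, had 448, 200.4, 358 and 341 against 464 and 453, a difference of 0.50 ± 0.37 with an interval of -0.30 to 1.30. Arid3b, a chromatin-binding factor with 1 seed match of 7 bases and no 8-base site, had 1032, 364, 671 and 1017 against 1063 and 1081. These are the 3 targets at which both let-7f males lay above, by narrow margins, with vehicle male 2 the lowest male in each. Hmga2, a chromatin protein of growing tissues, had 11463, 7567, 12071 and 11285 against 10135 and 13294, and Igf2bp1, an mRNA-binding protein, had 8235, 4724, 8553 and 7313 against 8328 and 8317. Lin28a had 142, 58.7, 176 and 154 against 194 and 142. The let-7f males overlapped the vehicle males in all 3, and the intervals of the differences, -0.36 to 0.67, -0.40 to 0.89 and -0.72 to 1.58, include values on either side of 0.

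**Figure D4:**
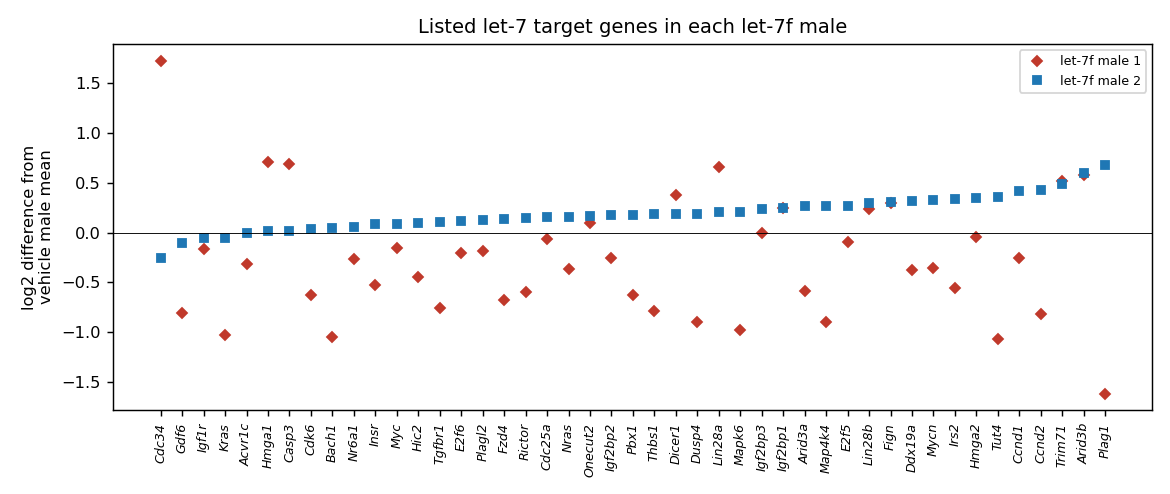
Log2 difference from the vehicle male mean for each of the 45 listed let-7 targets, ordered by let-7f male 2 (blue squares), with let-7f male 1 as red diamonds. In let-7f male 2, 40 of the 45 lie above 0, and in let-7f male 1, 11 do.

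Genes that make and load microRNAs showed no direction common to both let-7f males. Of 22, 19 were above the vehicle mean in let-7f male 2 and 10 in let-7f male 1. The median of let-7f male 2 was 0.12, or 0.03 without vehicle male 2. Both let-7f males lay above all vehicle males at 3 (13.6%, against 4.14% of all genes) and below at 0. Let-7f male 1 lay below at 5, where 31.4% of all genes did. With vehicle male 2 left out, 6 lay above and 6 below in both (27.3% each, against 20.3% and 19.1% of all genes). Drosha, which cuts primary microRNAs in the nucleus, had 6492, 5939, 6686 and 6406 against 7791 and 6967, and its partner Dgcr8 had 3359.8, 3953, 3909 and 3719 against 4088 and 4036. The gaps were narrow, with differences of 0.21 ± 0.12 and 0.12 ± 0.12.

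Across all genes, a seed match in the 3′ UTR went with the length of that UTR. Among 15786 tested genes with an annotated 3′ UTR (90.7%), 580 (3.67%) held an 8-base site and 2080 (13.2%) held only a match of 7 bases (CTACCTC or TACCTCA), while 13126 (83.1%) held none. Genes with an 8-base site had medians of -0.26 in let-7f male 1 and 0.05 in let-7f male 2, and those with no match had medians of 0.01 in each. The median UTR was 2444 bases with a site and 992 bases without. Among the longest of 4 equal classes of UTRs the medians of let-7f male 1 were -0.39 with a site and -0.37 without, and those of let-7f male 2 were 0.06 and 0.03. In the class next to the shortest they were -0.12 with a site and 0.03 without in let-7f male 1, and 0.03 and 0.02 in let-7f male 2. Both let-7f males lay below all vehicle males at 40 (6.90%) of the genes with an 8-base site, against 813 of 13126 (6.19%) of those with none. From the shortest to the longest class, the shares below were 3.70%, 16.3%, 8.86% and 3.56% with a site and 4.42%, 7.08%, 7.96% and 5.36% without. The share with a site was thus the higher in the middle classes and the lower in the outer ones, and the 16.3% stands for 14 of 86 genes.

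Some growth-axis genes lay below the vehicle males. Of 23 genes of the IGF and growth hormone axis, 4 (17.4%, against 5.9% of all genes) lay below all vehicle males in both let-7f males and 0 above. Each let-7f male by itself lay above at 3, where let-7f male 1 did so at 34.9% of all genes and let-7f male 2 at 13.9%. Leaving out vehicle male 2, 11 (47.8%, against 19.1%) lay below in both and 1 above. The list had medians of -0.52 and -0.17, and all 4 of the genes below were also below the 5 vehicle females. The mean level of the list was -0.31 and -0.20 in the let-7f males. It ran from -0.22 to 0.12 in vehicle males and from -0.17 to -0.07 in vehicle females. Let-7f male 2 thus lay within the vehicle male range, whose lowest value was that of vehicle male 2. Igf2, the main fetal growth factor, had 79884, 97134, 62643 and 92075 in vehicle males and 54339 and 52836 in let-7f males, a difference of -0.61 ± 0.25. Socs2, which restrains growth hormone signalling, had 708, 719.8, 799 and 941 against 612 and 598, and Igfbp4, a binding protein, had 14794, 17689, 16157 and 17418 against 11079 and 14143. Igfals, which stabilises circulating IGF, was low throughout, at 31.3, 15.2, 25.7 and 14.2 against 3.53 and 10.8. The let-7f males were nearly equal in Igf2 and Socs2. Igf2r, the imprinted receptor that clears IGF2, had 14761, 8529, 14804 and 14455 against 5781 and 10726, and let-7f male 2 lay within the vehicle range, which vehicle male 2 alone extended downward.

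Of 25 imprinted genes, 2 (8.0%, against 4.14% of all genes) lay above and 3 (against 5.9%) below in both let-7f males. Without vehicle male 2 the counts were 4 above (16.0%, against 20.3% of all genes) and 6 below (24.0%, against 19.1%). Nnat, neuronatin, which is expressed from the paternal allele, had 18901, 29927, 20816 and 23209 against 50873 and 37657. It lay above all 9 vehicle fetuses in both, with a difference of 0.94 ± 0.21 and a DESeq2 adjusted p of 0.0106. Among 30 BMP and TGF-beta genes, 5 (16.7%, against 5.9% of all genes) lay below all vehicle males in both let-7f males and 0 above. The let-7f males differed over the list, with medians of -0.37 in let-7f male 1 and 0.03 in let-7f male 2. In let-7f male 2, 18 of the 30 were above the vehicle mean. With vehicle male 2 left out the counts were 7 below (23.3%, against 19.1% of all genes) and 4 above (13.3%, against 20.3%). Bmp6 had 199.6, 168, 178 and 178 against 67.0 and 95.4, Bmp2 had 349, 353, 398 and 316 against 141 and 297, and Tgfb3 had 1834, 1961, 1827 and 1709 against 1116 and 1445. All 3 are secreted ligands, and Bmp6, with a difference of -1.17 ± 0.26, lay below every vehicle fetus in both let-7f males. Gdf10, another ligand of the family, had 1197, 1519, 1456 and 1308 against 903 and 1158.

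Genes of the testis, which forms at this stage, were mixed. Of 19 somatic testis genes, 4 (21.1%, against 5.9% of all genes) lay below and 1 above, with medians of -0.39 and -0.23. The medians were -0.21 and -0.06 without vehicle male 2, and the 4 below (21.1%) then lay near the 19.1% of all genes. Nr5a1, the steroidogenic regulator SF1, had 72.4, 87.1, 55.8 and 54.2 against 38.8 and 30.5, and Inhbb, an inhibin subunit, had 166, 219.7, 223 and 201 against 86.4 and 134. Cbln4, a secreted cerebellin, had 61.6, 86.0, 70.9 and 73.7 against 14.1 and 57.1. Sox9, a factor of Sertoli cells and of cartilage, was the member above, with 2422, 2879, 2940.2 and 2668 against 3006 and 2987. Steroidogenic genes did not separate: Star had 400.2, 322, 266 and 326 against 249 and 312, and Cyp17a1 had 69.5, 30.4, 36.3 and 8.88 against 0 and 16.7. Among 16 germ cell genes, 2 (12.5%) lay below and 1 above, or 4 (25.0%) and 2 (12.5%) without that library. Ddx4, the germ cell helicase VASA, had 71.4, 70.9, 76.2 and 66.6 against 33.5 and 36.4, and Tdrd1, of the piRNA pathway, had 249, 219.7, 271 and 290.3 against 100.5 and 175. Sall4, also expressed outside germ cells, was above with 326, 209, 343 and 137 against 753 and 351.

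Smaller groups added single genes, to be read against 4.14% of all genes above and 5.9% below. Of 16 immediate early genes, 4 (25.0%) lay below in both and 0 above: Fos had 56.7, 33.4, 57.6 and 61.3 against 24.7 and 23.6, Egr1 had 243, 295, 303 and 244 against 132 and 235, Klf4 had 514, 548, 545 and 526 against 279 and 466, and Nr4a1 had 263, 354, 268 and 318 against 145 and 256. All of them encode transcription factors that respond rapidly to signals. Of 24 cholesterol synthesis genes, 4 (16.7%) lay above in both and 0 below. The medians were 0.02 in let-7f male 1 and 0.14 in let-7f male 2. In let-7f male 1, 12 of the 24 were above the vehicle mean and 12 below, and in let-7f male 2, 18 and 6. Let-7f male 1 lay above all vehicle males at 10 and below at 3, where 34.9% and 31.4% of all genes did. Insig1, a sterol sensor, had 2029, 1788, 1983 and 2044 against 2613 and 2228, and Acat2 had 6748, 7618, 7407 and 7497 against 9596 and 8301. Msmo1, a sterol oxidase, differed by 0.19 ± 0.14. Hypoxia and glycolysis genes split 3 and 3 of 25. Pkm, pyruvate kinase, had 52766, 58303, 55498 and 58814 against 84211 and 71574, while Ero1a, an oxidase of the endoplasmic reticulum, had 1879, 1459.8, 2194 and 2058 against 956 and 1154. Bnip3, a mitophagy receptor, had 1051, 1061, 1093 and 1027 against 811 and 847, and Ndrg1 had 811, 657, 643 and 734 against 495 and 531. Of 14 heat shock genes, 2 (14.3%) lay above in both, Hsp90aa1 (37188, 34806, 32704 and 36599 against 65185 and 39250.4) and Hsp90ab1 (87354, 89926, 85984 and 83610.0 against 93782 and 98245), both chaperones. Of 20 endothelial genes, 2 lay above and 0 below, Pecam1 (1972, 1757, 1867 and 1889.9 against 2622 and 2067) and Robo4 (582, 674, 545 and 682 against 987 and 722). Interferon response genes (2 of 22 below) and macrophage genes (2 of 23 below) lay near the background of 5.9%. When vehicle male 2 was left out, and 20.3% of all genes lay above and 19.1% below, the shares above and below were 12.5% and 31.2% for immediate early genes, 37.5% and 8.33% for cholesterol synthesis, and 42.9% and 0.0% for heat shock genes. Of the 25 hypoxia and glycolysis genes 8 then lay above and 5 below, and of the 20 endothelial genes 5 and 2.

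**Figure D5:**
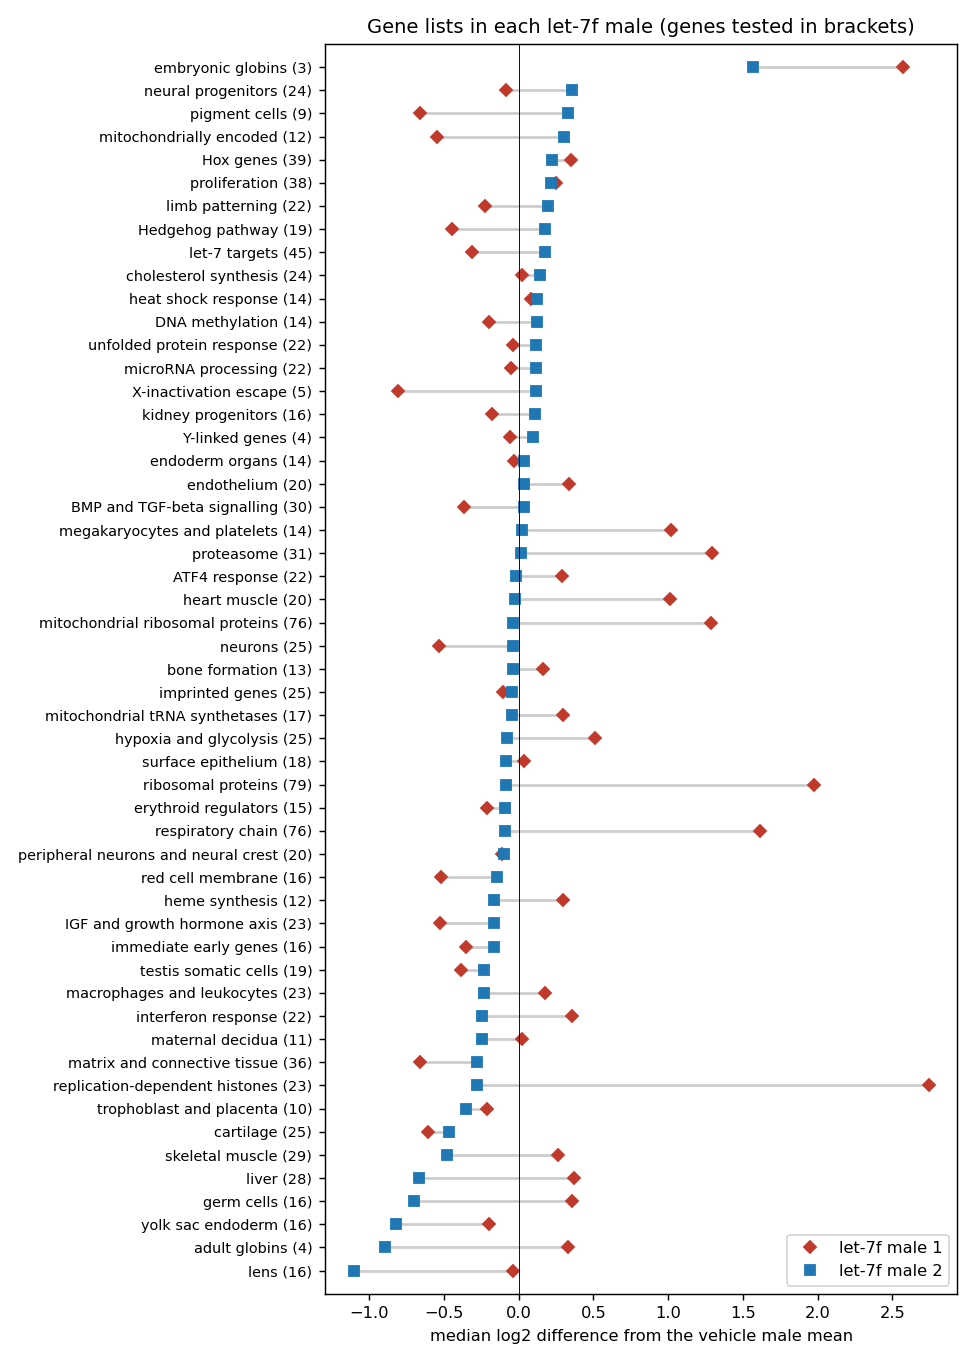
Median log2 difference from the vehicle male mean over the tested members of each gene list, for let-7f male 1 (red diamonds) and let-7f male 2 (blue squares), with the number of genes in brackets. The let-7f males lie on the same side in embryonic globins, proliferation, matrix and cartilage, and on opposite sides in liver, skeletal muscle and adult globins.

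Taken by itself, let-7f male 1 differed from the vehicle males at 4389 genes, 2634 higher (15.1%) and 1755 lower (10.1%), in limma with that fetus as a group of its own. Before adjustment 7077 genes (40.7%) were under 0.05. This compares 1 fetus with 4, and its variance was taken from the replicated groups. The count depended on the libraries in the fit: it was 8190 without vehicle male 2, 2860 without vehicle male 4 and 63 with the 6 male libraries alone. All 79 ribosomal protein genes lay above all vehicle males in that fetus, where 34.9% of all genes did, with a median of 1.97. Fau, which encodes a small-subunit protein fused to a ubiquitin-like domain, had 9821, 31729, 10564 and 11258 in vehicle males and 95635 and 14555 in let-7f males. Rpl5 had 14241, 29937, 13507 and 13926 against 74137 and 17047, and Rps14 had 27848, 80236, 26088 and 35697 against 154528 and 44011. Vehicle male 2 was the highest of the vehicle males in each, and let-7f male 2 lay inside the vehicle range but above vehicle males 1, 3 and 4. Leaving out vehicle male 2, both let-7f males lay above at 69 of the 79 (87.3%, against 20.3% of all genes), with a median of 0.24 in let-7f male 2. With the length trend removed the ribosomal median of let-7f male 1 was 1.06.

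In let-7f male 1, nuclear genes of the respiratory chain lay above in 72 of 76 (median 1.61), mitochondrial ribosomal proteins in 67 of 76 (1.28), and proteasome subunits in 28 of 31 (1.30). That fetus lay above at 34.9% of all genes. Ndufv1 of complex I had 3501, 9743, 3255 and 3799 against 27198 and 4512, and Mrps12 had 585, 2043, 568 and 613 against 5081 and 926. The 12 genes encoded in the mitochondrial genome had a median of -0.55 in the same fetus and 0.30 in let-7f male 2. Let-7f male 1 lay below all vehicle males at 6 of the 12 and above at 3, where 31.4% and 34.9% of all genes did. Its mean level over these genes was -0.22, within the range of -0.31 to 0.29 in vehicle males. Replication-dependent histone genes, whose mRNAs largely lack a poly-A tail, had a median of 2.74 in let-7f male 1 and -0.28 in let-7f male 2, and H3c2 had 6.85, 17.2, 19.5 and 7.10 against 217 and 15.7. Let-7f male 1 thus stood high in the nuclear-encoded lists and had a negative median in the mitochondrially encoded one. Let-7f male 2 lay near the vehicle mean or on the other side of it when vehicle male 2 was among the vehicle males. When that library was left out, let-7f male 2 had medians of 0.19 in the respiratory chain, 0.18 in mitochondrial ribosomal proteins and 0.22 in the proteasome. Both let-7f males then lay above at 56 of 76 (73.7%), 56 of 76 (73.7%) and 25 of 31 (80.6%) of these genes, against 20.3% of all genes. The histone median of let-7f male 2 was then -0.07.

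Single genes in let-7f male 1 reached far beyond any list. Calb1, the calcium-binding protein calbindin, had a normalised count of 57696 there, against 83.4 to 223 in vehicle males and 149 in let-7f male 2. Tor1aip1, of the inner nuclear membrane, stood at 57219.7 against 1219.8 to 1850.1 and 1499. Or5al5, an olfactory receptor gene, stood at 908 against 2.94 to 39.5 and 9.84. Rhox8, a homeobox gene of the reproductive cluster on the X chromosome, stood at 1194 against 17.8 to 116 and 59.0. In the other direction, Lingo2, a neuronal membrane protein, was at 5.29 against 56.8 to 198, and Rusc2 at 45.8 against 352 to 533. Let-7f male 2 lay within the vehicle range in Calb1, Tor1aip1, Or5al5, Rhox8 and Lingo2, so the fold changes of these genes for the group, such as 4.39 ± 1.51 for Calb1, describe 1 fetus. Calb1, Tor1aip1, Or5al5 and Rhox8 were among the DESeq2 calls.

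Let-7f male 2 by itself differed at 0 genes in limma (0.0% in each direction), with 347 at an unadjusted p under 0.05 (1.99%). edgeR had 0 calls too (327 genes before adjustment), and DESeq2 called 6. Where that fetus stood furthest below all vehicle males, the genes included Rgn, regucalcin of the liver, with 152, 405, 171 and 173 against 61.0. Vehicle male 2 held the top of that range. Let-7f male 1 lay a little below the vehicle range in Rgn, at 139.

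Whether the let-7f difference depended on sex was tested as the difference between the male and the female contrast. In limma 0 of 17400 genes (0.0%) passed, the smallest adjusted p was 0.213, and 1485 genes (8.53%) were under 0.05 before adjustment. The edgeR count was 0 (1791 before adjustment), and DESeq2 called 24. The separated genes of males took other values in females. Grip2 had a female difference of -0.49 ± 0.25, and the male minus female difference was 2.22 ± 0.39, with a limma adjusted p of 0.282. For Hba-x the female difference was -0.25 ± 0.37 and the male minus female difference 2.32 ± 0.57. For Col1a1 they were 0.14 ± 0.23 and -0.97 ± 0.35, for Acan 0.61 ± 0.41 and -1.93 ± 0.63, and for Igf2 0.16 ± 0.21 and -0.77 ± 0.33. These 5 were taken from genes at which the male groups did not overlap, a choice that favours a difference between the sexes. Their estimates lay on opposite sides of 0 in the sexes, but the female differences of Hba-x, Col1a1 and Igf2 were smaller than their standard errors. The limma adjusted p-value of the difference between sexes was 0.522 in Hba-x, Col1a1, Acan and Igf2. For the let-7 target Lin28b the female difference was -0.02 ± 0.20 and the male minus female difference 0.28 ± 0.31.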

How the data were processed

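RNA of E12.5 mouse fetuses was poly-A selected and sequenced from stranded TruSeq libraries, per the labels' protocols. Tools listed in the submitters' processing notes, whose roles are not given, were DESeq2 1.48.2, kallisto 0.50.1 and Trimmomatic 0.39, and the build was GRCm39. The authors deposited a normalised signal per gene, called normalised counts per the labels. Dividing by the worth of 1 read gave whole numbers for 100.0% of values (tolerance 1e-06), so reads were recovered for count models. Of 18132 named genes, 17400 with a mean of at least 10 were tested. The 1 row without a name held at most 0.0334% of reads and was left out, and 26 genes shared all values with another. No pair of libraries of a group agreed within sampling noise (lowest chi-square divided by its degrees of freedom, 18.6).

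On log2(value + 1), which understates changes of low genes, limma 3.58.1 (R 4.3.3) fitted 4 group means to 14 libraries (10 residual degrees of freedom), or 5 with each let-7f male apart (9). Adjustment was by Benjamini and Hochberg across the 17400 genes, and calls needed an adjusted p under 0.05. edgeR 4.0.16 and DESeq2 1.42.0 were alternatives. Scripts were tested on simulated data. The members, gene lists (54) and tests were chosen with earlier results of these data known.

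Genes named were those with a mean of at least 50 and the 12 widest gaps in each direction, the 6 furthest outside in each let-7f male, up to 4 per list, and fixed genes. Some genes that rule gives are not reported here, and Hba-a1, Hba-a2 and similar copies may share reads. Transcript lengths (16805 genes, 96.6%) and UTRs came from GENCODE M21 on GRCm38, an older build than the one named by the submitters, matched by symbol. The length trend was removed with a lowess of span 0.3 per library. With 2 fetuses against 4, an exact permutation test cannot reach 0.05, and none is given.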

Additional observations from a re-analysis of the deposited data

Results flagged for a closer look

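In the 4 vehicle males, the gap between 1 fetus and the nearest of the others exceeded Dixon's 95% critical value for 4 samples at 26 of the 133 genes named in the text or beside it. Chance alone flags about 1 in 20 genes. Vehicle male 2 was the fetus apart at 21 of the 26, vehicle male 3 at 3 and vehicle male 1 at 2.

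Vehicle male 2 stood high at blood and liver genes, with normalised counts of 182367 in Hbb-bt, 314066 in Hbb-bs, 506085 in Hba-a1, 886 in Aqp1, 61427 in Alb, 6006 in Serpina6 and 405 in Rgn. The other vehicle males ran from 16913 to 20859 in Alb, for example. It also stood high in lens, cartilage and muscle genes, at 315 in Cryga, 75.9 in Crygd, 62.8 in Crygb, 135 in Cryba2, 932 in Matn1 and 437 in Mymk. It was high in short, abundant transcripts, at 29937 in Rpl5, 31729 in Fau, 9743 in Ndufv1 and 2043 in Mrps12, and in the olfactory receptor gene Or5al5, at 39.5. It was low at 8529 in Igf2r, 33.4 in Fos and 139.7 in Shh.

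Vehicle male 3 was low in Slc2a2 (74.4) and high in Thbs2 (1652) and Pou4f1 (943), each by a modest amount against 3 tight values. Vehicle male 1 was high in the placental genes Prl3b1 (189) and Rhox9 (556), at which the other vehicle males held between 3.54 and 7.09.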

How the results depend on the processing

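Among 27 settings, the male comparison in limma called 0 genes except with a pseudocount of 0.5 or the length trend removed (1 each, Rpl36a-ps1), without vehicle female 5 (1, Rps12-ps9) and without let-7f male 2 (4390). Both of these are pseudogenes that may share reads with their parent genes. DESeq2 called 58, and leaving out 1 library gave 0 to 4390. The difference between sexes had 0 calls in limma, 24 in DESeq2, and 0 to 3206 with 1 library left out, the 3206 without let-7f male 2. For let-7f male 1 alone, the 4389 calls became 11921 with library weights, 63 with the male libraries only and 172 with the replicate block, and 2860 to 8190 with 1 library left out. For let-7f male 2 alone, 0 became 30 with library weights and 6 in DESeq2, and stayed 0 with any 1 library left out. The genes at which both let-7f males lay above all vehicle males (720) numbered 467 after rescaling to the 75th percentile, 5475 without let-7f male 1 and vehicle male 2, and 891 to 6069 with 1 library left out. Those below (1026) numbered 4959 without let-7f male 1 and vehicle male 2, and 1211 to 5469. The comparisons without let-7f male 1 and vehicle male 2, and with the length trend removed, were chosen after seeing the data. Beyond fewer libraries in the counts of separated genes, the cause of these shifts was not tested.

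The replicate block left the male comparison, the difference between sexes and let-7f male 2 alone at 0 calls. No label pairs the numbers, and the deviations of same-numbered males correlated at -0.354 (number 1) and -0.576 (number 2) over genes, where the 2 let-7f deviations mirror each other by construction. Of 133 genes, 123 kept their direction under every setting. Without let-7f male 1 and vehicle male 2 the log2 difference turned to -0.13 in Tor1aip1, -0.13 in Hba-a1, -0.29 in Hba-a2, -0.54 in Afp, -0.15 in Lin28a, -0.27 in Lars2 and -0.14 in Eif2s3y. It turned with the length trend removed in Hba-a1 (-0.50) and Hba-a2 (-0.65), with library weights in Alb (0.32), and with the replicate block in Alb (0.57) and Eif2s3y (-0.21). With 1 library left out, the ranges that crossed 0 were -0.025 to 5.23 in Tor1aip1, -0.53 to 0.81 in Hba-a1, -0.76 to 0.90 in Hba-a2, -0.90 to 1.53 in Afp, -0.81 to 0.73 in Alb, -0.041 to 0.35 in Hmga2, -0.0061 to 2.59 in Ndufv1, -0.54 to 4.45 in Lars2 and -0.20 to 0.33 in Eif2s3y. With at least 27709934 reads per male library, depth limits only genes of a few reads, such as Crygd, Igfals and Cyp17a1.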

Other observations

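Several gene groups outside those described above set the let-7f males apart from each other. Heart muscle genes (20) had a median log2 difference of 1.01 in let-7f male 1 and -0.03 in let-7f male 2, and megakaryocyte and platelet genes (14) had 1.02 and 0.02. Pigment cell genes (9) had -0.66 and 0.33, Hedgehog pathway genes (19) -0.45 and 0.18, and kidney progenitor genes (16) -0.18 and 0.11. With the length trend removed, the heart median of let-7f male 1 was 0.76, the platelet median 0.41 and the Hedgehog median -0.28. Let-7f male 2 lay above all 4 vehicle males at 8 of 19 Hedgehog genes and 6 of 16 kidney genes, where 13.9% of all genes did. Without vehicle male 2 the medians of let-7f male 2 were 0.15 in pigment cell, 0.09 in Hedgehog and 0.08 in kidney genes. Both let-7f males then lay above at 7 of 20 heart (35.0%) and 6 of 14 platelet genes (42.9%), against 20.3% of all genes, and below at 5 of 19 Hedgehog genes (26.3%, against 19.1%).

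Further stress and organ lists had medians between -0.25 and 0.12 in let-7f male 2, against 0.02 over all genes. The unfolded protein response (22 genes) had medians of -0.04 in let-7f male 1 and 0.12 in let-7f male 2. Both let-7f males lay above all vehicle males at 0 of these genes and below at 1, against 4.14% and 5.9% of all genes. When vehicle male 2 was left out, the median of let-7f male 2 was 0.23. Then 10 genes (45.5%, against 20.3% of all genes) lay above in both and 2 (9.09%, against 19.1%) below. The ATF4 response (22) had 0.29 and -0.02, and mitochondrial tRNA synthetases (17) had 0.30 and -0.04. Surface epithelium (18) had 0.04 and -0.08, endoderm organs (14) -0.03 and 0.03, and DNA methylation genes (14) -0.20 and 0.12. Maternal decidua genes (11) had 0.02 and -0.25, and 3 (27.3%, against 5.9% of all genes) lay below all vehicle males in both. Without vehicle male 2 the same share (27.3%) stood against 19.1% of all genes. Their mean level was 0.07 and -0.37 against -0.16 to 0.33 in vehicle males.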
